A study of Homo sapiens with 4 samples.

Results

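The 9 genes described here belong to the RAS and RAP signalling switch and were found by name in the deposited gene table: NRAS, HRAS, RRAS, RRAS2, RAP1A, RAP1B, RAP2B, RAP1GAP and RAP1GAP2. They are 9 of 58735 genes in the table, each name matched 1 row, and all 9 passed the filter on low values given below. The samples were cultured human cells, labelled as lung squamous carcinoma, with 2 RNA-seq libraries at 30 Gy and 2 at 0 Gy (gray measures absorbed radiation). The labels give the same genotype entry for every library and name no further agent, and the dose is known from the library names alone. The design text names the SK-MES-1 line and SK-MES-1-RR, a derivative resistant to radiotherapy, but no label assigns either line to a library, and the schedule of the 30 Gy is not given. Separate cultures are not stated for the replicates, so a p-value here reflects the spread among these libraries alone, and that spread may be technical.

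RAS and RAP proteins are small GTPases that are on when bound to GTP and off when bound to GDP. Exchange factors load GTP, and GTPase-activating proteins (GAPs) speed its hydrolysis and so switch the GTPase off. NRAS and HRAS pass growth signals to RAF kinases and the MAPK cascade. RRAS and RRAS2 (also called TC21) belong to the R-RAS branch, which acts on integrin adhesion and on PI3-kinase. RAP1A and RAP1B encode the near-identical RAP1 proteins of integrin activation and cell junctions, and RAP2B is a member of the sister RAP2 group. RAP1GAP and RAP1GAP2 are GAPs for RAP1.

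Between principal GENCODE v29 transcripts (GRCh38) the longest exact run shared by any 2 of the 9 genes was 10 to 45 bases, with a median of 12 over 36 pairs. RAP1A and RAP1B shared at most 29 bases in a row, RRAS and RRAS2 at most 23, and the longest run, 45 bases, was between RAP1B and RAP2B.

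Reads of near copies were few. The processed pseudogene RAP1BP1, which shares up to 62 bases in a row with RAP1B, had 12 and 6 reads at 30 Gy and 12 and 16 at 0 Gy, against 1779 to 2200 reads of RAP1B itself. RAP1AP, RAP1BP2 and RAP1BP3 had at most 4 reads in any library. Genes whose coordinates overlap RAP1A, RAP1B or RAP1GAP2, 9 in all, had at most 36 reads in any library. Whether counting used strand is not stated, so reads of a gene and of an antisense partner cannot be told apart.

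Values are FPKM (fragments scaled by gene length and library size), as deposited. Reads per gene, recovered from them, summed to 15920861 and 15979341 at 30 Gy, against 17261121 and 16773381 at 0 Gy. Changes are 30 Gy minus 0 Gy on the log2(FPKM + 1) scale, which understates the change of low genes, tested with limma over the 13379 genes that reached FPKM 1 in 2 or more libraries and adjusted by Benjamini-Hochberg at 0.05. A permutation test of 2 libraries against 2 cannot reach 0.05, so none is given. Of 8 squamous markers 6 were under 1 FPKM in every library: KRT5, KRT6A and DSG3 had 0 reads, KRT14 at most 4, DSC3 stood at 0.275 to 0.650 FPKM and SOX2 at 0.0936 to 0.548. TP63 stood at 3.19 to 4.14 FPKM and PKP1 at 14.8 to 18.3, and the summed level of the 8 was 20.7 and 19.2 FPKM at 30 Gy and 22.2 and 22.8 at 0 Gy. The summed level of 4 leukocyte markers was 0.00683 and 0.156 FPKM at 30 Gy and 0.160 and 0.0910 at 0 Gy, and that of 4 lung adenocarcinoma markers 0.0350 and 0.0832 at 30 Gy and 0.156 and 0.0493 at 0 Gy. The summed level of 5 fibroblast markers, nearly all of it COL1A1, was 78.7 and 72.6 FPKM at 30 Gy and 62.8 and 63.2 at 0 Gy. DCN was at 0 in each library, and LUM had 43 and 63 reads at 30 Gy, against 1 and 5 at 0 Gy. The part of these marker differences in the results below was not tested. In bulk RNA, fewer cells that express a gene and less of its RNA per cell cannot be told apart.

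At 30 Gy, RRAS was 1.92-fold higher than at 0 Gy, RRAS2 and RAP1A were 2.20-fold and 1.30-fold lower, and RAP1GAP was 4.26-fold lower. NRAS, HRAS, RAP1B, RAP2B and RAP1GAP2 did not pass the test. Of the 9 genes 1 rose and 3 fell; of all 13379 tested genes 19.8% passed, 10.8% higher and 9.06% lower at 30 Gy. The 2 doses did not overlap for any of the 9 genes, as was the case for 65.2% of all tested genes; 4 members were higher at 30 Gy (32.9% of all tested genes) and 5 lower (32.3%). The median log2 change was -0.12 over the 9 genes and -0.00068 over all tested genes.

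**Figure D1:**
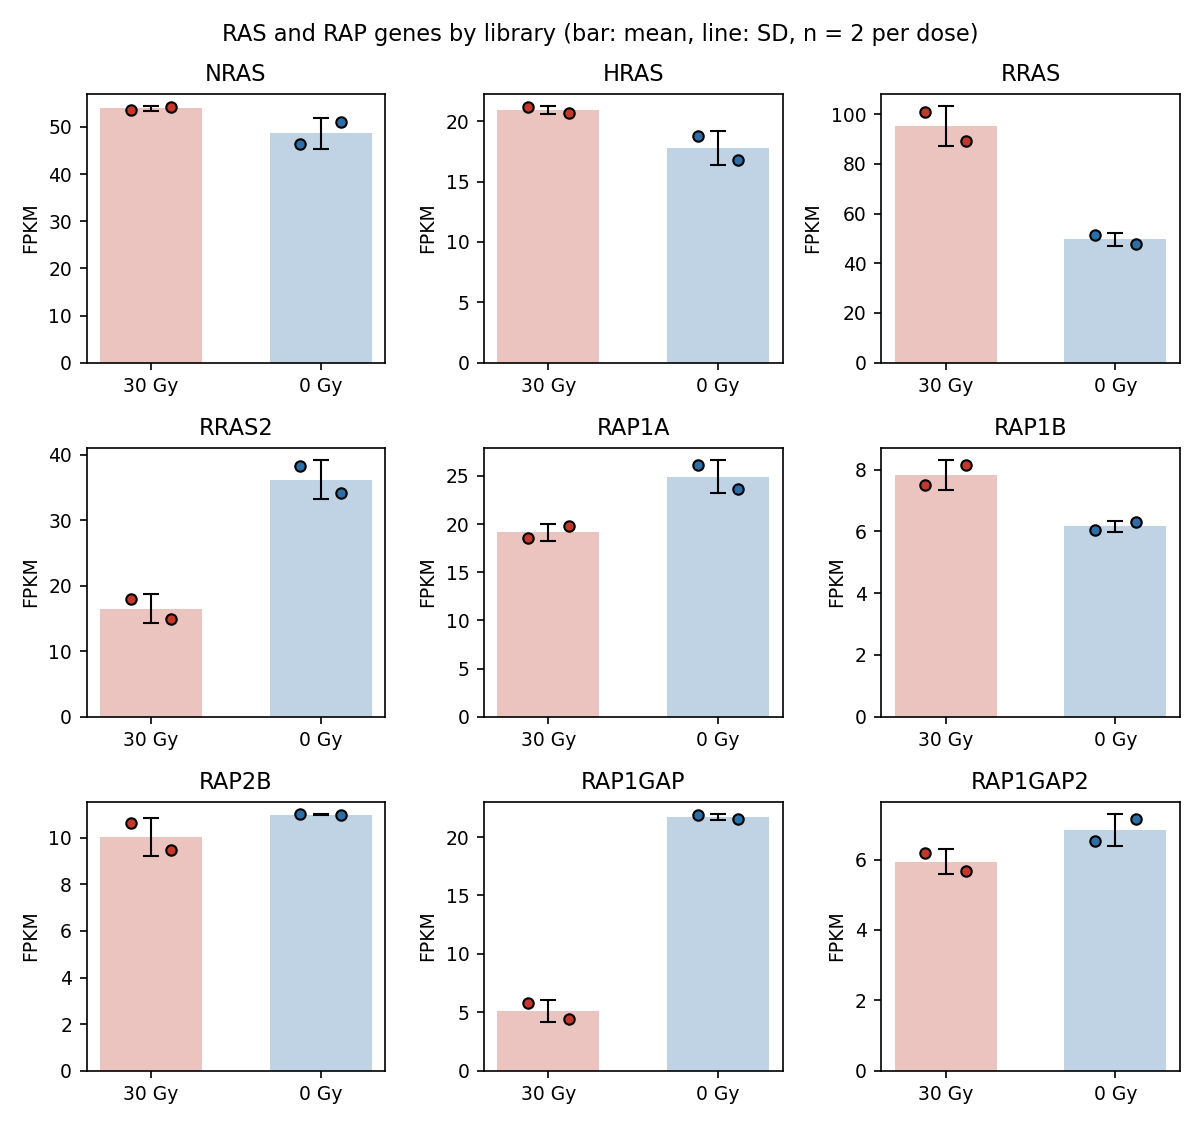
FPKM of each gene (vertical axis, linear from 0) in the 2 libraries at 30 Gy and the 2 at 0 Gy, with points for libraries, bars for means and lines for SD (n = 2). RRAS stands at 89.4 to 101 at 30 Gy and 47.8 to 51.4 at 0 Gy, and RAP1GAP at 4.43 to 5.76 at 30 Gy and 21.5 to 21.9 at 0 Gy.

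The classical RAS genes were high and close between doses. NRAS (ENSG00000213281, chr1:114704469-114716894, minus strand) had 53.6 and 54.2 FPKM at 30 Gy, against 46.3 and 51.0 at 0 Gy. Its 30 Gy libraries lay closer together than its 0 Gy libraries, and just above the higher of them. The log2 change was 0.15 ± 0.07 (SE; limma adjusted p = 0.193; 95% interval -0.03 to 0.33). HRAS (ENSG00000174775, chr11:532242-537287, minus strand) had 21.2 and 20.7 FPKM at 30 Gy, against 18.8 and 16.8 at 0 Gy. Both 30 Gy libraries were higher, with a log2 change of 0.22 ± 0.08 (SE; limma adjusted p = 0.102). Its unadjusted 95% interval, 0.03 to 0.42, leaves out 0, but the change did not pass over all genes.

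RRAS and RRAS2 moved in opposite directions. RRAS (ENSG00000126458, chr19:49635292-49640201, minus strand) had 101 and 89.4 FPKM at 30 Gy (1867 and 1650 reads), against 51.4 and 47.8 at 0 Gy (1037 and 943 reads). The lower 30 Gy library stood well above the higher 0 Gy library. RRAS averaged 95.1 ± 8.07 FPKM at 30 Gy, against 49.6 ± 2.51 FPKM at 0 Gy (SD, n = 2), which is 1.92-fold higher, with a log2 change of 0.92 ± 0.08 (SE; limma adjusted p = 0.00511).

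RRAS2 (ENSG00000133818, chr11:14277926-14364506, minus strand) had 18.03 and 14.91 FPKM at 30 Gy (994 and 819 reads), against 38.3 and 34.1 at 0 Gy (2301 and 2001 reads). Both 30 Gy libraries were far below both 0 Gy libraries. The means were 16.5 ± 2.21 FPKM at 30 Gy, against 36.2 ± 2.97 FPKM at 0 Gy (SD, n = 2), which is 2.20-fold lower, with a log2 change of -1.09 ± 0.11 (SE; limma adjusted p = 0.00684). The ratio of RRAS to RRAS2 within a library was 5.591 and 5.997 at 30 Gy and 1.34 and 1.40 at 0 Gy. Per principal transcript length in place of the deposited gene length, this ratio was 2.73 and 2.93 at 30 Gy and 0.654 and 0.684 at 0 Gy. The summed FPKM of NRAS, HRAS, RRAS and RRAS2 was 194 and 179 at 30 Gy and 155 and 150 at 0 Gy. Of this sum RRAS held 52.1% and 49.9% at 30 Gy, against 33.19% and 31.95% at 0 Gy. RRAS2 held 9.31% and 8.32% at 30 Gy, against 24.7% and 22.8% at 0 Gy, and per principal transcript length 17.1% and 15.4% at 30 Gy, against 39.5% and 37.2% at 0 Gy.

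**Figure D2:**
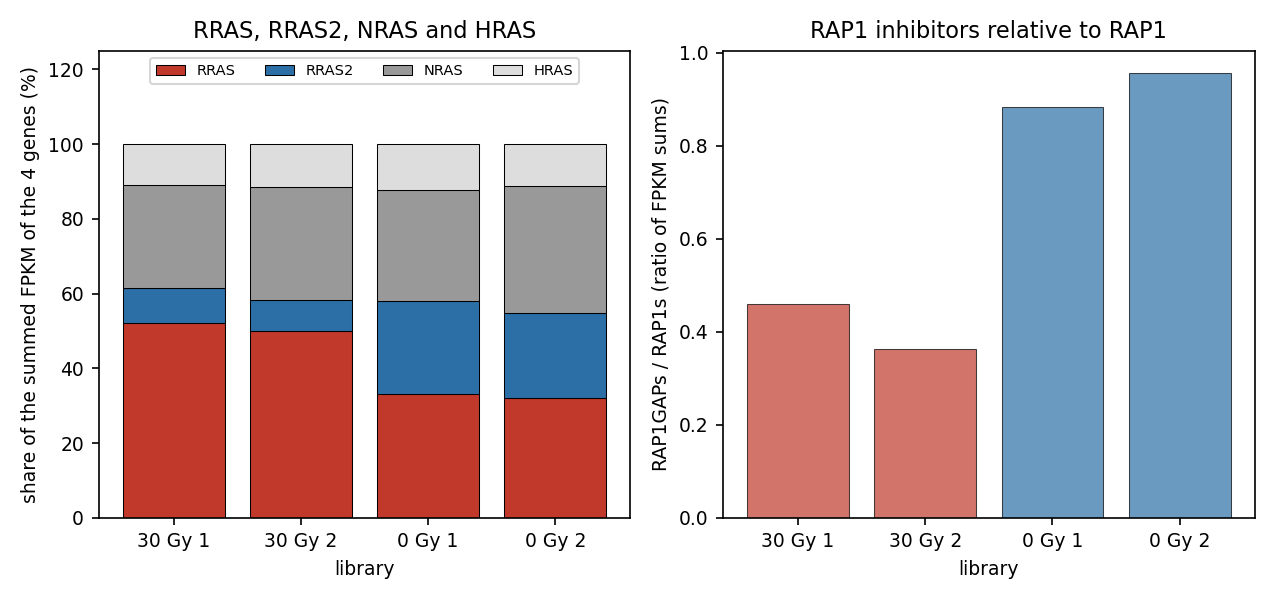
Left, share of the summed FPKM of RRAS, RRAS2, NRAS and HRAS in each library (percent); right, the FPKM of RAP1GAP plus RAP1GAP2 over that of RAP1A plus RAP1B in each library, with no replicate error since each bar is 1 library. RRAS holds 49.9% to 52.1% at 30 Gy and 31.95% to 33.19% at 0 Gy. The right-hand ratio, which leaves out other GAPs for RAP, is 0.362 to 0.460 at 30 Gy and 0.883 to 0.957 at 0 Gy.

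The fall of RRAS2 came with falls of the genes around it on the short arm of chromosome 11. All 5 tested protein-coding genes whose start lies within 1 Mb of that of RRAS2 passed the test and were lower at 30 Gy, with a median log2 change of -0.99. The nearest on either side were COPB1, a coatomer subunit, at -0.99 ± 0.06 (SE; limma adjusted p = 0.00218), and FAR1, a fatty acyl-CoA reductase, at -1.003 ± 0.082 (SE; limma adjusted p = 0.00423). Within 5 Mb, 26 of 42 tested genes fell and 1 rose, against 9.06% and 10.8% of all tested genes, with a median of -0.75. The part of this regional difference in the change of RRAS2 was not tested. HRAS, near the end of the same arm, had no such surroundings: within 1 Mb of it 4 of 37 genes rose and 4 fell, with a median of 0.06.

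The neighbours of RRAS and RAP1GAP had medians near 0, but those of RRAS spread widely. Within 1 Mb of RRAS 7 of 47 genes rose and 8 fell, with a median of 0.04. Of all tested genes 10.8% rose and 9.06% fell. The largest rises near RRAS were those of CGB5 (3.29) and CGB8 (2.32), and the largest falls those of HSD17B14 (-1.07) and PLEKHA4 (-0.86). The part of these neighbours' changes in that of RRAS was not tested. Within 1 Mb of RAP1GAP 0 of 8 genes rose and 1 fell, with a median of -0.11, and the nearest, USP48 and NBPF3, had changes of -0.06 and -0.11, neither past the test.

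**Figure D3:**
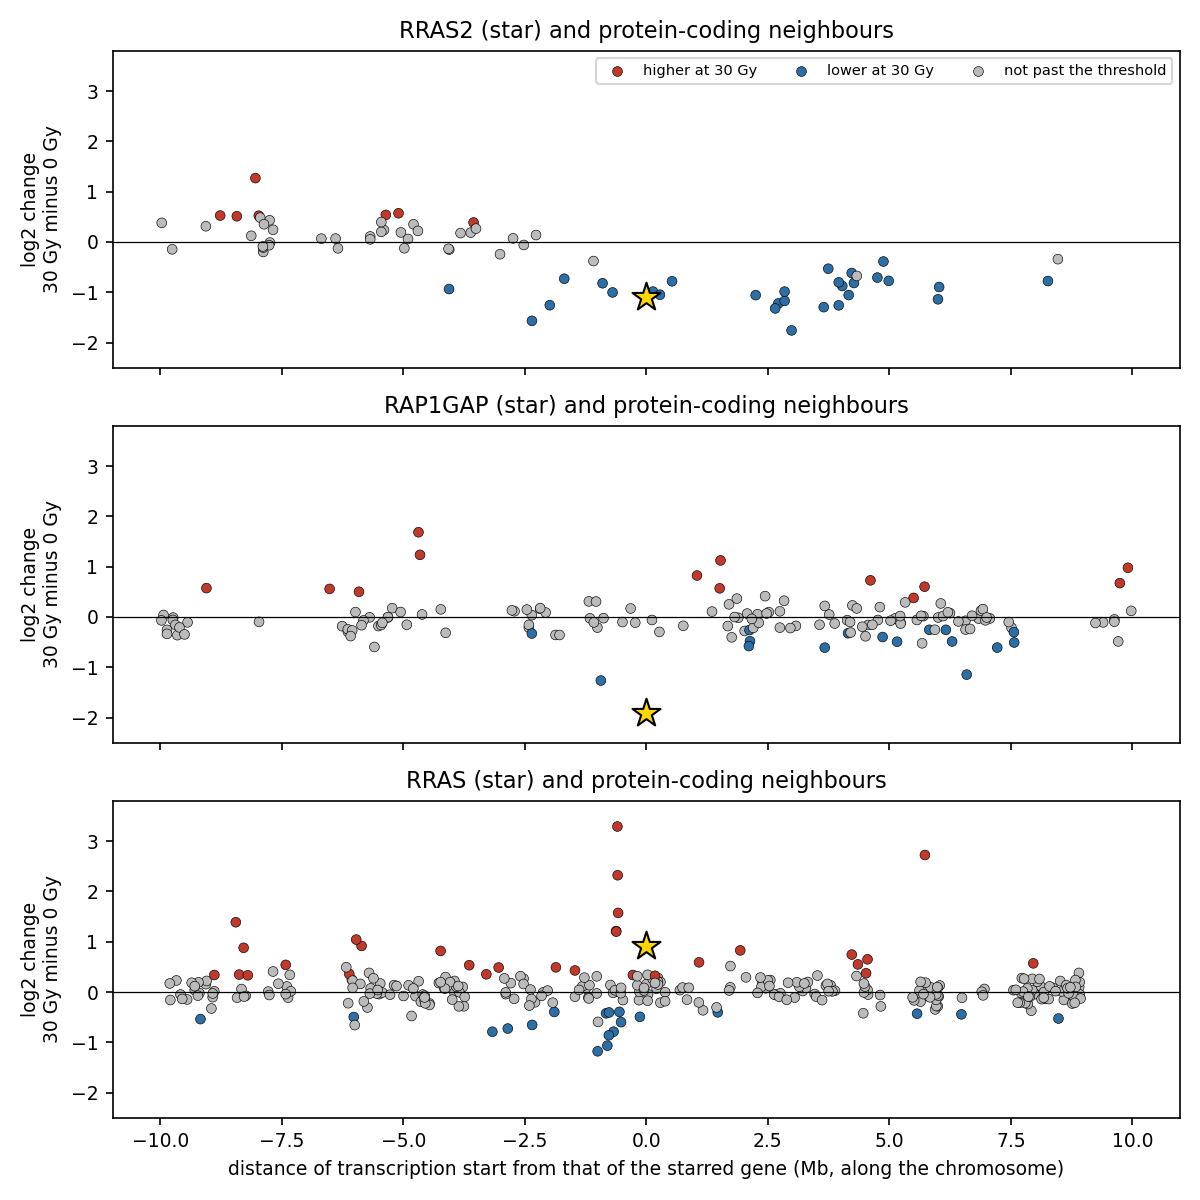
log2 change (30 Gy minus 0 Gy, vertical axis) of tested protein-coding genes within 10 Mb of RRAS2, RAP1GAP and RRAS, by distance of their start from that of the starred gene in Mb. The genes within 1 Mb of RRAS2 are all lower at 30 Gy, with a median of -0.99. Those within 1 Mb of RAP1GAP and RRAS have medians of -0.11 and 0.04, and those near RRAS run from -1.07 to 3.29.

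For RRAS2 the 250 bases before the RefSeq start nearest to that of its principal transcript, 1 base away, are shown because this gene changed and a promoter sequence was at hand (GRCh38.p14, chr11:14359184-14359433, minus strand; capitals mark GC boxes, GGGCGG on either strand).
RRAS2: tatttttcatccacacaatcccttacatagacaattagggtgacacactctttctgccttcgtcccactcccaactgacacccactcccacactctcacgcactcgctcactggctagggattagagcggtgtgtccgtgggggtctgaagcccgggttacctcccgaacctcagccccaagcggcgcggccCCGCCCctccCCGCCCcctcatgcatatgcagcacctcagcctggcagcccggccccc
It is 61.6% G and C and holds 2 GC boxes; 42.6% of the 35116 RefSeq promoters of this length hold at least 1. On both strands it holds no match to the CCAAT box, the TATA box (TATAAA), the AP-1 site (TGANTCA), the E-box (CACGTG), the CRE (TGACGTCA), the antioxidant response element core (TGACNNNGC) or the TEAD site (GGAATG), which 32.01%, 10.7%, 6.57%, 6.34%, 1.65%, 10.9% and 11.9% of these promoters hold, in that order. RefSeq lists 4 promoters of RRAS2, and the motif results differ between them: of the other 3, which are not printed, 1 holds 3 GC boxes and 2 hold none, and 2 hold a TEAD match. A RefSeq promoter was listed for 7 of the 9 genes, and the other 2 are RRAS and RAP1GAP. RAP1A also fell and has a listed promoter, which is not printed. Its RefSeq start lies 77774 bases from the start of its principal transcript.

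The RAP genes changed less. RAP1A (ENSG00000116473, chr1:111542218-111716691, plus strand) had 18.5 and 19.8 FPKM at 30 Gy, against 26.1 and 23.7 at 0 Gy. Its means were 19.2 ± 0.898 FPKM at 30 Gy, against 24.9 ± 1.72 FPKM at 0 Gy (SD, n = 2), which is 1.30-fold lower, with a log2 change of -0.36 ± 0.08 (SE; limma adjusted p = 0.0355). The call was lost without any one library (adjusted p from 0.0850 to 0.170) and when every gene above 0 was tested (0.113), while the change stayed between -0.43 and -0.29.

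RAP1B (ENSG00000127314, chr12:68610839-68671901, plus strand) went the other way and missed the threshold. It had 7.49 and 8.16 FPKM at 30 Gy, against 6.03 and 6.30 at 0 Gy, a log2 change of 0.30 ± 0.08 (SE; limma adjusted p = 0.0545). With a filter at FPKM 5 it passed (adjusted p = 0.0373). The ratio of RAP1A to RAP1B was 2.47 and 2.42 at 30 Gy and 4.33 and 3.76 at 0 Gy, and their summed FPKM 26.02 and 27.96 at 30 Gy and 32.16 and 29.99 at 0 Gy. RAP2B (ENSG00000181467, chr3:153162270-153170620, plus strand) had 10.6 and 9.47 FPKM at 30 Gy, against 11.0 in both 0 Gy libraries, a log2 change of -0.12 ± 0.08 (SE; limma adjusted p = 0.321; 95% interval -0.32 to 0.08).

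Of the 2 members that are GAPs for RAP1, RAP1GAP carried the largest change of the 9 genes. RAP1GAP (ENSG00000076864, chr1:21596215-21669363, minus strand) had 5.76 and 4.43 FPKM at 30 Gy (529 and 406 reads), against 21.9 and 21.5 at 0 Gy (2191 and 2106 reads). The 0 Gy libraries were nearly equal and the 30 Gy libraries were far below them. The log2 change was -1.91 ± 0.12 (SE; limma adjusted p = 0.00232; 95% interval -2.21 to -1.60), 4.26-fold lower by the means, and 0.336% of tested genes had a larger change in either direction. RAP1GAP2 (ENSG00000132359, chr17:2755705-3037739, plus strand) had 6.20 and 5.68 FPKM at 30 Gy, against 6.52 and 7.16 at 0 Gy, a log2 change of -0.17 ± 0.08 (SE; limma adjusted p = 0.203; 95% interval -0.39 to 0.04).

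RAP1GAP was 0.929 and 0.780 times RAP1GAP2 in the 30 Gy libraries, against 3.36 and 3.01 times in the 0 Gy libraries. The summed FPKM of both GAPs was 11.96 and 10.12 at 30 Gy and 28.39 and 28.68 at 0 Gy, or 0.460 and 0.362 times the sum of RAP1A and RAP1B at 30 Gy and 0.883 and 0.957 times at 0 Gy. These are ratios of RNA levels per deposited gene length. Per principal transcript length, both GAPs were 0.825 and 0.658 times RAP1A plus RAP1B at 30 Gy, against 1.48 and 1.61 times at 0 Gy, so the ratio at 0 Gy lies below or above 1 by the length used. It was lower at 30 Gy with either length. The ratio leaves out 6 other GAPs for RAP, which are listed for the pathway below. Their summed FPKM was 45.6 and 43.3 at 30 Gy and 41.1 and 38.1 at 0 Gy. GENCODE lists 13 transcripts of RAP1GAP, 8 of them coding and with 8 different starts, and the gene-level table does not separate them.

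**Figure D4:**
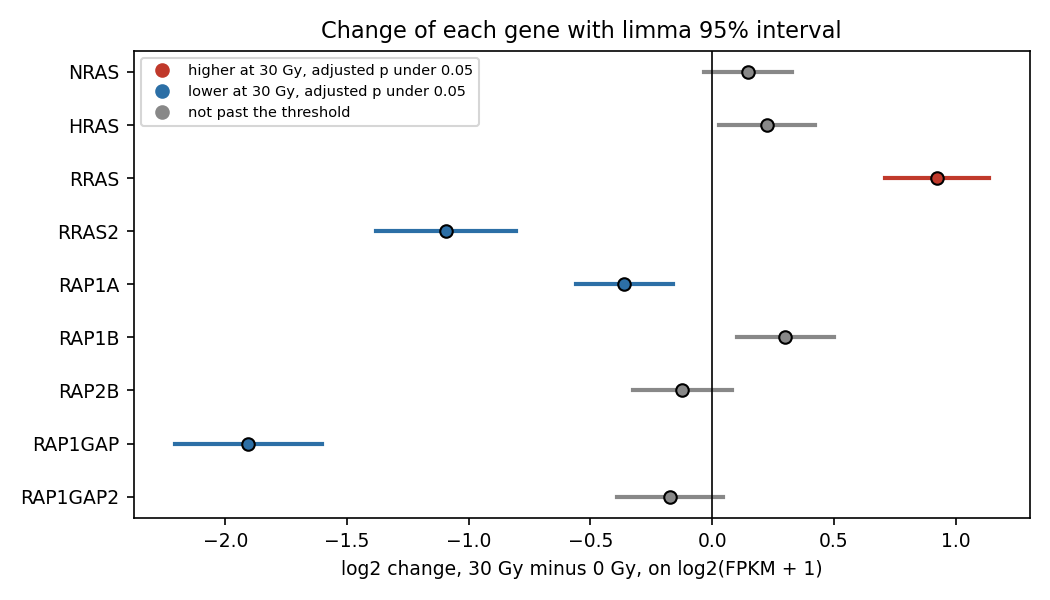
log2 change of each gene (30 Gy minus 0 Gy on log2(FPKM + 1), horizontal axis) with its limma 95% interval, coloured by whether it passed over all tested genes. RRAS is past the threshold on the higher side at 0.92, and RRAS2, RAP1A and RAP1GAP on the lower side at -1.09, -0.36 and -1.91.

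Without either 0 Gy library, which leaves a lone library to stand for that dose and is taken to vary like the other, none of the 13379 genes passed (limma; 3422 and 3460 had an unadjusted p under 0.05), so no call of the set held there. RRAS had adjusted p of 0.0818 and 0.0886 without the first and the second 0 Gy library, RRAS2 0.0944 and 0.0886, and RAP1GAP 0.0767 and 0.0799. When the filter on low values was applied again to the 3 libraries that remained, an alternative chosen after the data were seen, 592 and 623 genes passed. RRAS (0.0306 and 0.0345), RRAS2 (0.0414 and 0.0343) and RAP1GAP (0.0245 and 0.0233) then passed without either 0 Gy library, and RAP1A did not.

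By mean FPKM at 30 Gy the order was RRAS (95.1), NRAS (53.9), HRAS (20.9), RAP1A (19.2), RRAS2 (16.5), RAP2B (10.05), RAP1B (7.83), RAP1GAP2 (5.94) and RAP1GAP (5.10); the last 2 overlapped between libraries. At 0 Gy it was RRAS (49.6), NRAS (48.6), RRAS2 (36.2), RAP1A (24.9), RAP1GAP (21.7), HRAS (17.8), RAP2B (11.0), RAP1GAP2 (6.84) and RAP1B (6.16), with RRAS and NRAS overlapping. These levels depend on the length the authors divided by. The deposited length of RAP1B is 16942 bases and that of RRAS2 is 3453, 1.26 and 2.28 times the length of their principal GENCODE transcripts. Divided by the principal transcript instead, RRAS2 averaged 37.5 at 30 Gy and 82.4 at 0 Gy, above RRAS (55.1) at 0 Gy, and RAP1GAP averaged 8.97 at 30 Gy and 38.2 at 0 Gy. The changes between doses do not depend on this choice of length, other than through the pseudocount.

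The rest of the pathway was described by 8 lists of 90 genes in all, of which 63 were tested. Among these, 7 rose and 4 fell, 17.5% of those tested against 19.8% of all tested genes, and the median change was -0.00067, against -0.00068 over all tested genes. With every gene above 0 tested, MAP4K4 was the 1 list gene that passed. Of 15 tested relatives in the RAS branch 2 rose and 1 fell. RALA and RALB, GTPases of exocytosis that act downstream of RAS, rose by 0.50 ± 0.08 and 0.35 ± 0.07 on the log2 scale (SE; limma adjusted p = 0.0211 and 0.0330). MRAS, which joins SHOC2 in a phosphatase complex that activates RAF, had 6.64 and 6.85 FPKM at 30 Gy, against 9.26 and 9.14 at 0 Gy, and fell by 0.40 ± 0.07 (SE, log2; limma adjusted p = 0.0205).

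Of 5 tested genes listed as other GAPs for RAP, SIPA1L1 rose and 0 fell, where 19.8% of all tested genes passed. RASAL1, which fell, was listed with the RAS GAPs below and is not counted here. SIPA1L1 had 8.48 and 8.66 FPKM at 30 Gy, against 6.31 and 6.72 at 0 Gy (limma adjusted p = 0.0313). None of the 4 tested exchange factors for RAP passed; DOCK4 had the largest change, 0.40 ± 0.16 (SE, log2; limma adjusted p = 0.137), followed by PLCE1 at -0.28 ± 0.09 (limma adjusted p = 0.0955). DOCK4 passed in limma without the trend (0.40, adjusted p = 0.0433) and with voom on the recovered reads (0.85, 0.00278), and its change was 0.78 with a pseudocount of 0.1. PLCE1 passed with voom (-0.40, adjusted p = 0.00920). Of 8 RAP effectors MAP4K4, a kinase bound by RAP2, rose to 25.6 and 25.8 FPKM at 30 Gy, against 17.4 and 17.3 at 0 Gy (limma adjusted p = 0.00752), and 0 fell.

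Among the exchange factors, GAPs and SPRED adaptors of RAS itself, 2 of 10 tested genes passed, a share like that of all tested genes (19.8%). None of the 2 tested exchange factors passed, with SOS1 at 0.19 ± 0.07 and SOS2 at -0.00067 ± 0.09 (SE, log2). Of 8 RAS GAPs and SPRED adaptors, RASA1, the p120 RAS GAP, rose to 9.59 and 9.79 FPKM at 30 Gy, against 7.08 and 6.85 at 0 Gy (limma adjusted p = 0.0177). RASAL1, another RAS GAP, fell to 0.247 and 0.235 FPKM at 30 Gy (19 and 18 reads), against 2.22 and 1.63 at 0 Gy (186 and 133 reads), 7.97-fold lower by the means (limma adjusted p = 0.0143). On the log2 scale its change was -1.23 with the pseudocount of 1, -2.55 with 0.1 and -2.96 with voom, where that of RAP1GAP was -1.91, -2.08 and -2.12. None of the 9 tested RAS effectors passed; their log2 changes ran from -0.07 to 0.21, SHOC2 and RGL1 being the largest at 0.21 and 0.19.

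Of 12 genes that lipid-modify, release or degrade these GTPases 2 rose and 2 fell, against 10.8% and 9.06% of all tested genes. LYPLA1, a thioesterase that removes palmitate, rose by 0.55 ± 0.08 (SE, log2; limma adjusted p = 0.0154), and ICMT, which methylates the prenylated end, by 0.31 ± 0.06 (limma adjusted p = 0.0250). ZDHHC9, a palmitoyltransferase of HRAS and NRAS, fell by 0.52 ± 0.08 (limma adjusted p = 0.0189) and LYPLA2, a second thioesterase, by 0.26 ± 0.06 (limma adjusted p = 0.0459).

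**Figure D5:**
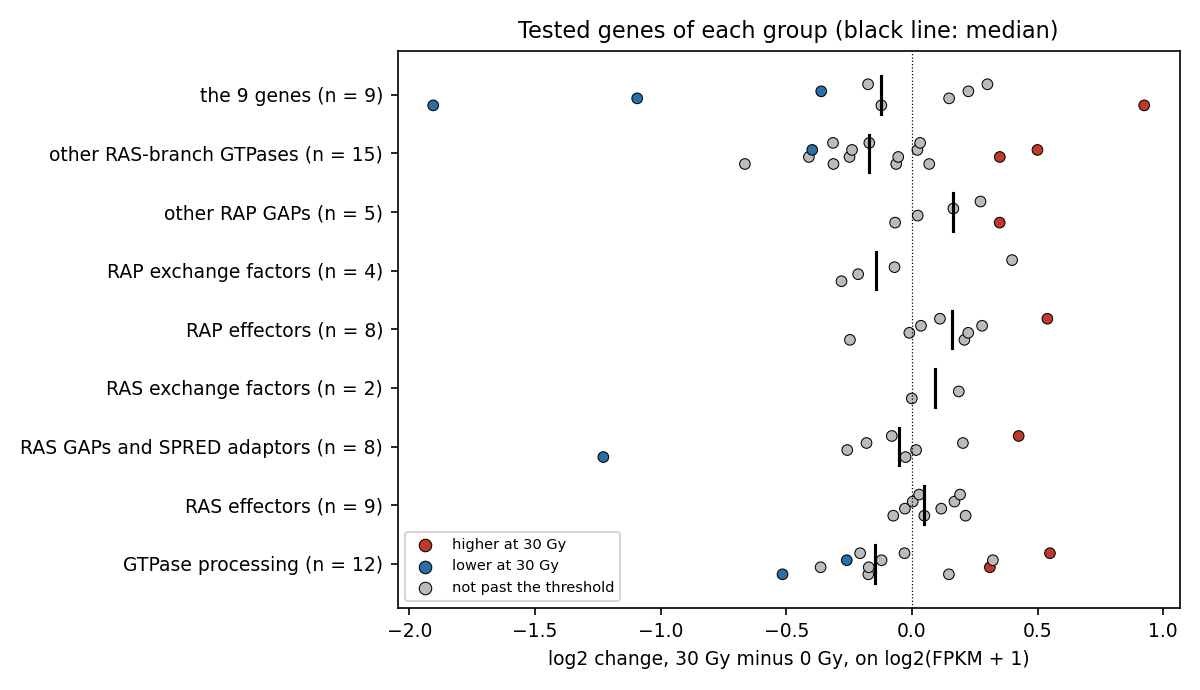
log2 change (30 Gy minus 0 Gy on log2(FPKM + 1)) of every tested gene of the set and of the 8 pathway lists, with a black line at each list's median. RAP1GAP at -1.91 and RASAL1 at -1.23 lie farthest to the left with this pseudocount of 1 (RASAL1 is lower than RAP1GAP with 0.1), and the medians of the 8 lists lie between -0.17 and 0.16.

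The 3 tested protein-coding genes whose values over the 4 libraries were most like those of RAP1GAP were GDF15, OSGIN1 and TNFRSF18. Likeness was the root-mean-square distance between log2(FPKM + 1) values centred on each gene's own mean, and it was 0.0504, 0.0898 and 0.0950. GDF15, a stress-induced cytokine, had 27.7 and 23.3 FPKM at 30 Gy, against 95.6 and 90.5 at 0 Gy, so that, as for RAP1GAP, the first library of each dose was the higher one.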

How the data were processed

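The authors deposited 1 table of FPKM values for 58735 genes in 4 libraries (2 at 30 Gy, 2 at 0 Gy); the submitters' processing notes name hg38, and the sources used here give no aligner, counter, annotation or strand setting. Every gene identifier had the same start and end in GENCODE v29, which supplied transcripts. Multiplied by gene length, 100% of values above 0 were whole multiples of a step specific to the library (tolerance 0.001), which gave reads per gene, 15920861 to 17261121 per library. The 13379 genes that reached FPKM 1 in 2 or more libraries were tested with limma 3.58.1 in R 4.3.3 (trend, two-sided) on log2(FPKM + 1), adjusted by Benjamini-Hochberg at 0.05; degrees of freedom were 2 (residual) and 2.98 (prior). The code was tested on simulated data. The members and lists were chosen with earlier results of these data known. Named genes are the members, up to 4 passing genes per list (otherwise the 2 with the largest change) and nearest neighbours of RRAS2 and RAP1GAP. Overlapping genes, pseudogenes and the 3 genes most like RAP1GAP are also named. Markers serve only as checks, and LUM was singled out after its values were seen. CGB5, CGB8, HSD17B14 and PLEKHA4 were named for the size of their changes near RRAS, outside the planned choice. Alternatives were another pseudocount, filter, scaling or variance model, a replicate block, and leaving out libraries singly; ratios between members were also taken per principal transcript length, a choice made after the data were seen. Planned count-model fits were not run, since the deposited unit is not counts; voom on the recovered reads took their place. Coding sequence of the GTPases is not reported here.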

Additional observations from a re-analysis of the deposited data

How the results depend on the processing

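The direction of all 9 genes held under each of 17 alternatives. With every gene above 0 tested, 604 genes passed in place of 2654, 2 of the 9 members in place of 4, and 1 list gene in place of 11; RRAS2 (-1.09, adjusted p = 0.0537) and RAP1A (-0.36, 0.113) were lost. voom on the recovered reads, chosen after the data were seen, called 4227 genes, 20 list genes and RAP1B (0.33, adjusted p = 0.00443), which also passed with a filter at FPKM 5 (0.30, 0.0373). RAP1A was lost with eBayes without trend (-0.36, 0.0618). With each library left out, 0 to 898 genes, 0 to 3 members and 0 to 3 list genes passed, and with the filter applied again 1317 and 1411 (without a 30 Gy library) and 592 and 623 genes (without a 0 Gy library), with 4, 6, 0 and 0 list genes. The log2 change then ran from 0.84 to 1.01 for RRAS, -1.22 to -0.96 for RRAS2 and -2.06 to -1.75 for RAP1GAP. For RAP1A it was -0.32 and -0.41 without a 30 Gy library and -0.29 and -0.43 without a 0 Gy library, with either gene set and never past the threshold. SOS2, at -0.00067, ran from -0.089 to 0.087, and was positive without the first 30 Gy library (0.050) and without the second 0 Gy library (0.087), with either gene set. Fewer libraries or more genes tested are built into these settings; for the others the cause was not tested. Labels number the replicates 1 and 2 at both doses, and deviations of same-numbered libraries did not go together (r = -0.03 over 13379 genes), so the numbers are not taken as pairs. With the replicate block 1926 genes and 3 members passed, and RAP1A (-0.36, adjusted p = 0.0654) did not. Mitochondrial genes took 6.63% and 7.13% of reads at 30 Gy and 6.22% and 6.11% at 0 Gy; rescaling without them left the 4 calls among the members as they were. With the same 4 libraries 2255 genes passed in limma without the trend and 4227 with voom. The latter also works on reads in place of log2(FPKM + 1), so it changes more than the variance model.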
